A study of Mus musculus with 8 samples.

Results

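Notch signaling genes were followed in adult oligodendrocyte progenitor cells (aOPC) and adult oligodendrocytes (aOL), the myelin-forming cells that progenitors give rise to. The 9 genes were listed by name, with earlier results of these data known. They were the receptors Notch1, Notch2 and Notch3, the ligands Jag1, Jag2 and Dll1, the DNA-binding factor Rbpj, its coactivator Maml1 and the inhibitor Numb. In RNA, 7 of the 9 genes were among the 11315 genes listed, and Notch3 and Jag2 were not. For DNA hydroxymethylation, the 9 genes held 671 of 1497075 strand-specific CpG sites, from 46 in Maml1 to 110 in Notch2.

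Both populations were sorted from brains of P60 mice (postnatal day 60) with a C57BL/6 strain label, aOPC from Pdgfra-H2BEGFP reporter mice and aOL from EGFP reporter mice of another line, and mice of either sex were used. A nuclear EGFP driven by Pdgfra, a progenitor receptor gene, thus defined the aOPC, and an EGFP driven by the promoter of a myelin gene defined the aOL. In the labels, aOL of the RNA experiment are pre-myelinating by title and myelinating by protocol, and the tissue label of the aOL hydroxymethylation samples names the Pdgfra reporter, so groups followed the titles. Each population had 2 RNA-sequencing libraries and 2 libraries of Reduced Representation Hydroxymethylation Profiling (RRHP), numbered replicates 2 and 3, which were described as biological replicates without stating how many animals each pooled.

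In Notch signaling, a ligand on one cell binds a receptor on its neighbor, and the receptor is cut by ADAM proteases and then by gamma-secretase. The freed intracellular domain enters the nucleus and joins RBPJ and a Mastermind-like protein (such as MAML1) to activate genes of the Hes and Hey families. NUMB antagonizes the receptor, and in the oligodendrocyte lineage Notch signaling is known for its effects on progenitor maintenance and differentiation.

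RRHP reads 5-hydroxymethylcytosine (5hmC) at CCGG sequences: a glucosylated 5hmC blocks the enzyme MspI, and the blocked site yields reads. The counts are given here as such or as counts scaled to a common library total (CPM, that is 1000000 counts). This scaling, and that of the tests below, removes a 5hmC difference shared by most sites, so such a difference cannot be seen. The study states that samples with more 5hmC gave more reads. The RRHP libraries held between 7113237 and 27057859 counts, with aOPC replicate 2 the shallowest, and 3 counts, the floor used here, were worth between 0.111 and 0.422 CPM. RNA values were normalized log2 levels with no read counts, not scaled for gene length, so they were compared between libraries and not between genes. In RNA the median of 10 oligodendrocyte markers lay between 17.2 and 17.8 in all 4 libraries. Their median difference was 0.002 log2, so as a set they were as high in aOPC as in aOL. The RNA results below compare the populations as sorted and labeled. Of these markers, 4 were lower in both aOL libraries without overlap, each at an unadjusted p under 0.05, and 2 were higher without overlap. Over all genes tested, 29.9% were lower and 31.9% higher without overlap, and 24.0% had an unadjusted p under 0.05. The progenitor marker Pdgfra was listed at 7.54 and 5.47 in aOPC, against 4.98 and 1.63 in aOL. Of 9 listed progenitor markers, 3 were lower in aOL at an unadjusted p under 0.05, and 4 were lower without overlap. Another 3 had a difference above 0, 1 of them (Matn4) without overlap. The 2 aOPC libraries differed more from each other (SD of 0.952 log2 across genes) than the 2 aOL libraries did (SD of 0.446). In these bulk samples, fewer cells of a type and less RNA per cell cannot be told apart.

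The hydroxymethylated sites on which the results below turn are shown first. In 2 CCGG sites of the first intron of Rbpj and on 1 strand of a CCGG in a coding exon of Notch1, the read count was called higher in aOL than in aOPC. Each is printed as 44 bases of the plus strand of GRCm38.p6 with the CCGG in capitals.

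Rbpj intron 1, plus-strand reads, chr5:53596157-53596200: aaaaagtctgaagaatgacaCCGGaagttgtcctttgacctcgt
Rbpj intron 1, minus-strand reads, chr5:53596539-53596582: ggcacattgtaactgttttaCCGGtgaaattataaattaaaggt
Notch1 exon 28, minus-strand reads, chr2:26465431-26465474: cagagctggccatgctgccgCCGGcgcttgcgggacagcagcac

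The most heavily read site of each of the 3 genes with the highest mean CPM over the 4 libraries at a single position is shown in the same form, since these sites carried much of each gene's signal and were read in every library.

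Numb intron 3, plus-strand reads, chr12:83825189-83825232: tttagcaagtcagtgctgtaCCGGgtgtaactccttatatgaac
Jag1 intron 3, minus-strand reads, chr2:137104510-137104553: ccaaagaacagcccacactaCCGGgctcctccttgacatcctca
Maml1 exon 2, plus-strand reads, chr11:50265900-50265943: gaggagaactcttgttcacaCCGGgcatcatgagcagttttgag

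Whether the receptors differed in expression between progenitors and oligodendrocytes was asked of the RNA first. Notch1 (chr2:26457902-26503822, minus strand) was at 9.36 and 9.74 log2 in aOPC replicates 2 and 3, against 9.30 and 9.03 in the same replicates of aOL. Both aOL libraries were below both aOPC libraries, with group means of 9.55 ± 0.27 and 9.16 ± 0.19 (SD, n = 2). The difference of -0.39 log2 (SE 0.25) did not pass the test (limma adjusted p = 0.388). Notch2 (chr3:98013538-98150367, plus strand) was at 9.32 and 9.34 in aOPC, against 9.24 and 9.48 in aOL. Its libraries overlapped, and the difference of 0.03 (SE 0.20, limma adjusted p = 0.943) was smaller than the gap between the 2 aOL libraries.

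Among the ligands, Dll1 (chr17:15367354-15376932, minus strand), whose protein activates Notch on neighboring cells, was at 9.40 and 8.50 log2 in aOPC, against 10.27 and 10.53 in aOL. All of its aOL values lay above all aOPC values, and the difference was 1.45 log2 (SE 0.37). Its unadjusted p of 0.0166 was the only one under 0.05 among the 7 genes, and the limma adjusted p was 0.156. Jag1 (chr2:137081451-137116520, minus strand), a Jagged-type ligand, was at 5.46 and 6.96 in aOPC, against 7.79 and 7.15 in aOL. Jag1 thus did not overlap between the populations either, but its 2 aOPC libraries stood further apart (SD 1.06, n = 2) than any other member's. Its difference of 1.26 (SE 0.59) had a limma adjusted p of 0.278, and it was 0.51 without aOPC replicate 2 and 2.01 without aOPC replicate 3 (limma adjusted p = 0.294 and 0.0521).

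Endothelial cells also express Notch ligands, and 2 of 10 endothelial markers were listed, both higher in aOL without overlap, as were 31.9% of all genes. Cldn5, a tight-junction gene of vessels, was at 0.33 and 1.80 in aOPC, against 5.92 and 7.13 in aOL, and Kdr was at 9.07 and 9.36 in aOPC, against 9.73 and 10.07 in aOL. The summed level of both was 9.07 to 9.37 log2 in aOPC and 9.83 to 10.25 in aOL, and Pecam1, Cdh5, Flt1, Tek, Esam, Ly6c1, Slco1a4 and Vwf were not listed. The study's methods describe a density gradient meant to discard vessels and meninges, followed by the sort for EGFP. Of 8 pericyte and smooth muscle markers, 2 were tested (Acta2 and Vtn), both with a difference above 0 (median 1.57 log2) and with overlap. The part of endothelial cells, pericytes and smooth muscle in the Dll1 and Jag1 values was not tested. Astrocyte, microglial and neuronal markers leaned the other way. Differences were below 0 for 6 of 8 astrocyte, 7 of 10 microglial and 4 of 4 tested neuronal markers. The medians were -0.60, -0.53 and -0.47 log2. In each list 1 was lower at an unadjusted p under 0.05, a p that 24.0% of all genes had. Without overlap, 2, 4 and 2 were lower and 1, 1 and 0 higher, against 29.9% and 31.9% of all genes. The part of astrocytes, microglia and neurons in the lower aOL values of Notch1, and of the target genes Hes1 and Hes6 given below, was not tested.

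Downstream of the receptor, Rbpj (chr5:53555779-53657445, plus strand) was at 10.57 and 11.31 in aOPC, against 11.44 and 11.42 in aOL. The aOL values were above both aOPC values and the difference of 0.49 (SE 0.31) had a limma adjusted p of 0.391. Maml1 (chr11:50255634-50293131, minus strand) was at 8.58 and 9.41 in aOPC, against 8.95 and 9.32 in aOL. Its populations overlapped, with a difference of 0.14 (SE 0.37, limma adjusted p = 0.828). Numb (chr12:83794034-83921942, minus strand) was at 9.49 and 8.55 in aOPC, against 9.82 and 9.85 in aOL, without overlap. The Numb difference of 0.81 (SE 0.38) had a limma adjusted p of 0.270.

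**Figure D1:**
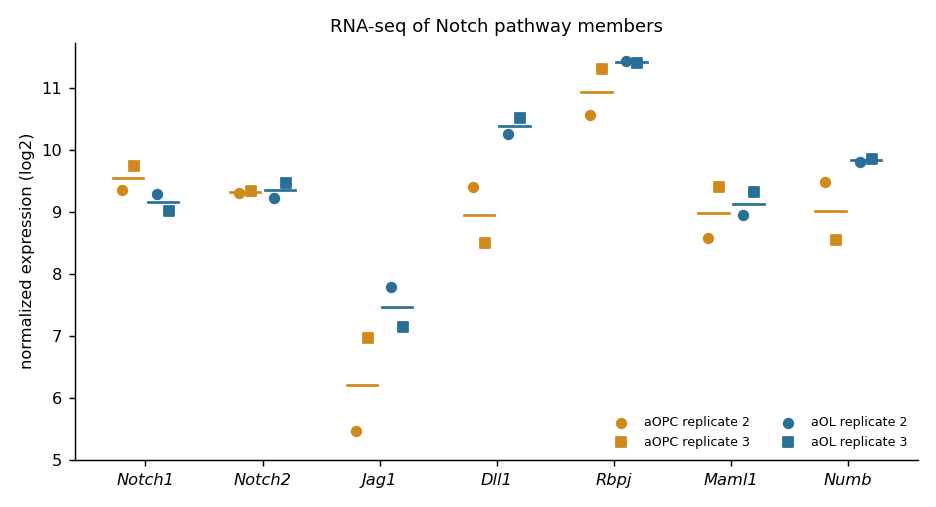
Normalized RNA level (log2, vertical axis) of the 7 listed genes in each library, with aOPC in orange, aOL in blue, circles for replicate 2, squares for replicate 3 and lines for the mean of 2 libraries. Jag1, Dll1, Rbpj and Numb lie higher and Notch1 lower in both aOL libraries, and the aOPC libraries are the more widely spaced for 6 of the 7 genes, Notch2 excepted.

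Of the 7 genes, 0 were called in RNA at p under 0.01 with an adjusted p under 0.05, a rule that called 0.0808% of 11133 genes tested. At an unadjusted p under 0.05 there was 1 of 7, against 24.0% of all genes. Without overlap, 4 were higher and 1 lower in aOL, against 31.9% and 29.9% of all genes. The median difference over the 7 genes was 0.49 log2, with 6 above 0, and over all genes it was 0.02, with 51.3% above 0. The calls depended on the aOPC libraries: without aOPC replicate 2, Dll1 (1.90 log2) and Numb (1.29) were called, both at a limma adjusted p of 0.0183, in a fit that called 1906 genes higher and 1899 lower. Without aOPC replicate 3, Rbpj was called (0.86, limma adjusted p = 0.0450) among 1102 genes higher and 872 lower. In the opposite fits Dll1 was at 0.997 and Numb at 0.34 (without aOPC replicate 3, limma adjusted p = 0.0514 and 0.0965) and Rbpj at 0.12 (without aOPC replicate 2, limma adjusted p = 0.369). In both fits the single aOPC library was assumed to vary like the aOL libraries.

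The genes whose RNA pattern over the 4 libraries was nearest, by the Euclidean distance of values taken minus each gene's mean, were Snx8 for Notch1 (distance 0.041), Acox3 for Notch2 (0.018), Spin4 for Jag1 (0.19), Prss53 for Dll1 (0.090), Sirt1 for Rbpj (0.033), Zfp566 for Maml1 (0.060) and Ppp2r2c for Numb (0.029). The patterns of Jag1 and Dll1 were shared by few genes, with 6 and 26 genes within a distance of 0.3. Notch1 and Notch2 had 792 and 1027 such genes, Rbpj 406, Numb 322 and Maml1 115.

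The rest of the pathway was read from a list of 55 other genes, of which 45 were tested in RNA. With limma, 0 of the 45 were called. At an unadjusted p under 0.05 there were 10 of 45, 9 of them higher in aOL and 1 lower, where 1346 of all 11133 genes were higher and 1331 lower. The median difference over the 45 genes was 0.31 log2, with 31 above 0, 21 higher without overlap and 7 lower without overlap, where 31.9% of all genes were higher and 29.9% lower in this way. The non-canonical ligand gene Dlk2 had the smallest p among those higher, at 7.67 and 7.98 in aOPC, against 11.07 and 11.20 in aOL. Its populations stood 3.31 log2 apart (SE 0.22, limma adjusted p = 0.0611). Maml3, a coactivator of the same family as Maml1, came next, at 5.37 and 5.79 in aOPC, against 7.41 and 7.42 in aOL (1.83 log2, limma adjusted p = 0.111).

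The remainder with an unadjusted p under 0.05 were 1 of 2 tested genes of ligand handling, 4 of 14 of receptor processing and glycosylation and 3 of 8 of inhibitors and turnover, against 24.0% of all genes. Mib1, the ubiquitin ligase that lets ligands be internalized, differed by 1.66 log2, the receptor proteases Adam10 and Adam17 by 1.38 and 1.34, and the proprotein convertase Furin by 1.26. Among genes of receptor turnover, Dtx4 differed by 1.29 and the ubiquitin ligase Itch by 1.02. The NUMB-associated kinase gene Aak1 was also among them. The limma adjusted p of these genes lay between 0.111 and 0.190. Psenen, a subunit of gamma-secretase, was the 1 gene lower, at 12.27 and 12.34 in aOPC, against 11.30 and 11.36 in aOL (-0.97, limma adjusted p = 0.133). Of the complex's other subunits named here, Ncstn and Aph1a were at -0.11 and -0.32 and Psen2, Aph1b and Aph1c at 0.34, 0.62 and 0.31, and 0 of these 5 had an unadjusted p under 0.05. Next among the lower was the corepressor Cir1 (-0.84, limma adjusted p = 0.250).

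Of the 7 target genes, 6 were listed and 0 had an unadjusted p under 0.05. Hes1, a canonical target, was at 5.83 and 6.79 in aOPC, against 0.32 and 5.75 in aOL, so that the difference of -3.28 (SE 1.92, limma adjusted p = 0.357) rested on aOL replicate 2. Heyl was at 4.32 and 5.08 in aOPC, against 5.38 and 8.19 in aOL, without overlap (2.09 log2, limma adjusted p = 0.291). Hey2 differed by 1.64, with overlap between the populations. Hes6 was at 9.55 and 10.28 in aOPC, against 9.12 and 9.39 in aOL, without overlap (-0.67, limma adjusted p = 0.291). Hey1 differed by -0.23 and Nrarp by 0.43, both with overlap. Notch4, Dll3, Dll4 and Hes5 were among the genes not listed.

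**Figure D2:**
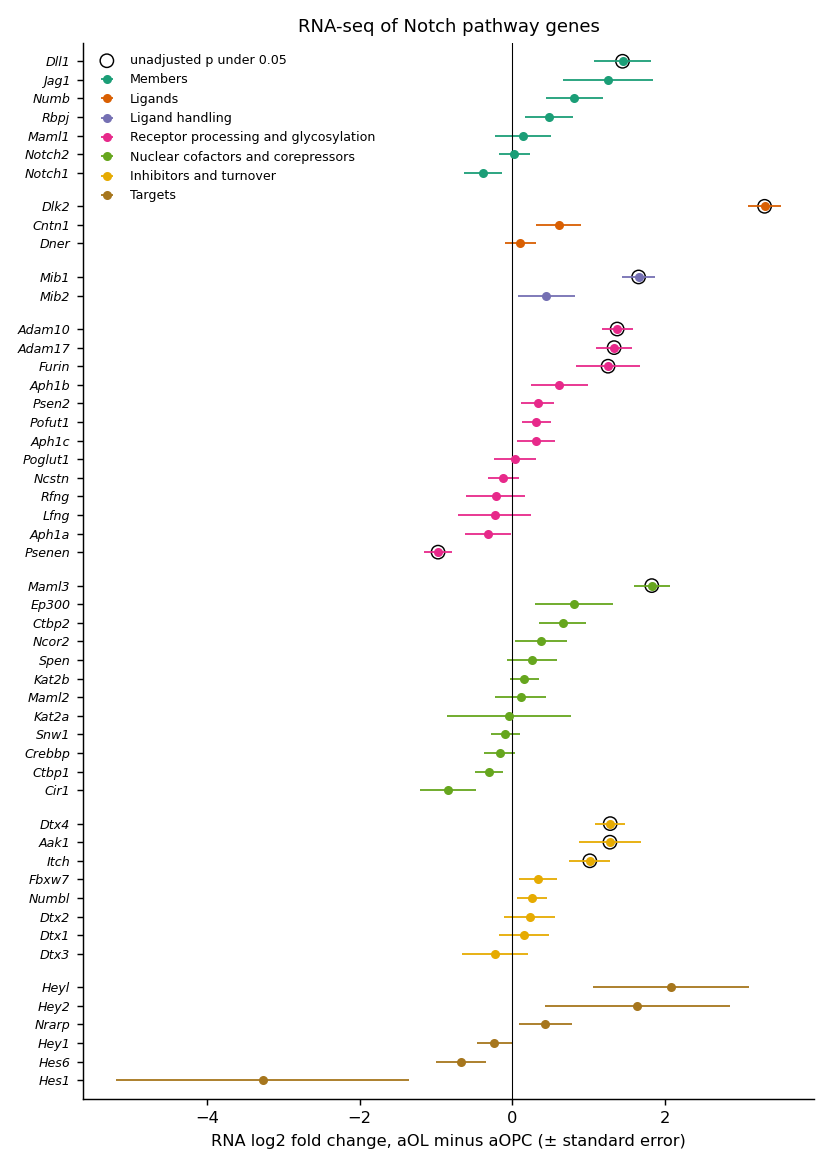
RNA log2 fold change (aOL minus aOPC, horizontal axis, ± standard error) of the 7 genes and of 44 of the 45 other pathway genes, colored by role, with open circles at an unadjusted p under 0.05. The open circles of Dll1 and of 9 other genes lie to the right, and that of Psenen lies to the left.

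Hydroxymethylation of each gene was next summed over the sites that the annotation of the count tables placed in its exons or introns. The receptor gene bodies were read deeply, with 442, 1089, 1158 and 1794 counts in Notch1 for aOPC replicates 2 and 3 and aOL replicates 2 and 3. As CPM these were 62.1 and 63.6 in aOPC, against 72.7 and 66.3 in aOL, higher in aOL without overlap by 0.13 log2 (SE 0.12, edgeR adjusted p = 0.805). Notch2 had 95.3 and 115.8 CPM in aOPC, against 119.2 and 114.6 in aOL, an overlap, and 0.13 log2 (SE 0.14). Notch3, which had no RNA value, had 36.3 and 36.3 CPM in aOPC, against 37.2 and 39.6 in aOL. The Notch3 difference was 0.07 log2, and 2 standard errors to each side reached from -0.18 to 0.33.

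Of the ligands, Dll1 had the lowest sum, with 15.3 and 11.97 CPM in aOPC, against 17.1 and 15.4 in aOL, a difference of 0.26 log2 (SE 0.18, edgeR adjusted p = 0.764) that was the highest of the 9. Jag1 had 31.9 and 29.7 CPM in aOPC, against 27.9 and 31.6 in aOL, an overlap. Jag2 had 36.1 and 37.7 in aOPC, against 37.7 and 43.1 in aOL, and its lowest aOL value was above the highest aOPC value by less than the rounding shown. Rbpj had 29.8 and 21.9 CPM in aOPC, against 26.0 and 29.0 in aOL, and Maml1 had 40.5 and 49.2 in aOPC, against 52.0 and 44.5 in aOL. Both overlapped. Numb was the member with lower values in both aOL libraries, at 91.0 and 87.5 CPM in aOPC, against 86.2 and 83.2 in aOL (-0.08 log2, SE 0.12).

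Of the 9 gene bodies, 0 were called at an edgeR adjusted p under 0.05 and 0 with DESeq2, where edgeR called 0.849% of 18488 gene bodies, and 0 had an unadjusted p under 0.05, against 7.30% of all. Higher in aOL without overlap were 4 (Notch1, Notch3, Jag2 and Dll1), and 1 was lower (Numb), against 21.0% and 17.8% of all gene bodies. The differences ran from -0.08 to 0.26 log2, and the widest interval of 2 standard errors, that of Dll1, reached from -0.09 to 0.62. Of 54 other pathway genes tested, 0 gene bodies were called and 4 had an unadjusted p under 0.05.

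Relative to the number of CCGG positions in each gene, the 9 genes were not read alike. The mean gene-body CPM per strand of a CCGG was 0.62 in Numb, 0.50 in Maml1, 0.47 in both Notch1 and Notch2, 0.33 in Jag1, 0.29 in Jag2, 0.25 in Notch3, 0.16 in Dll1 and 0.16 in Rbpj. The median over 14432 genes was 0.26, and Numb was at the 92.2nd percentile while Rbpj and Dll1 were at the 27.3rd and 27.6th. The reads were concentrated in few sites: 1 site held 33.8% of the gene-body CPM of Jag1, 24.5% of that of Numb and 21.97% of that of Maml1, and 5 sites held between 28.5% (Notch2) and 66.4% (Jag1).

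The leading sites lay in introns and exons alike. The Numb site in intron 3 of a transcript of 9 exons, printed above, had 203 and 333 counts in aOPC, against 319 and 464 in aOL. The Jag1 site in intron 3 (26 exons) had 77 and 176 counts in aOPC, against 147 and 288 in aOL, and the Maml1 site in coding exon 2 of 5 had 71, 180, 181 and 245 in the same order. In the receptors the leading sites were at chr2:26463862 in coding exon 31 of 34 of Notch1 (51, 196, 141 and 231 counts), chr3:98073962 in intron 4 of Notch2 (44, 207, 183 and 296) and chr17:32122471 in the coding part of exon 33 of 33 of Notch3 (28, 99, 90 and 112). Those of Jag2 (17, 76, 77 and 106) and Dll1 (12, 44, 41 and 56) lay in coding exons 22 of 26 and 9 of 11. The leading Rbpj site, with 22, 75, 75 and 107 counts, lay upstream of the principal transcript in the GENCODE M21 annotation and in an intron by the tables' own annotation. At each of these 9 sites the CPM of the populations overlapped.

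**Figure D3:**
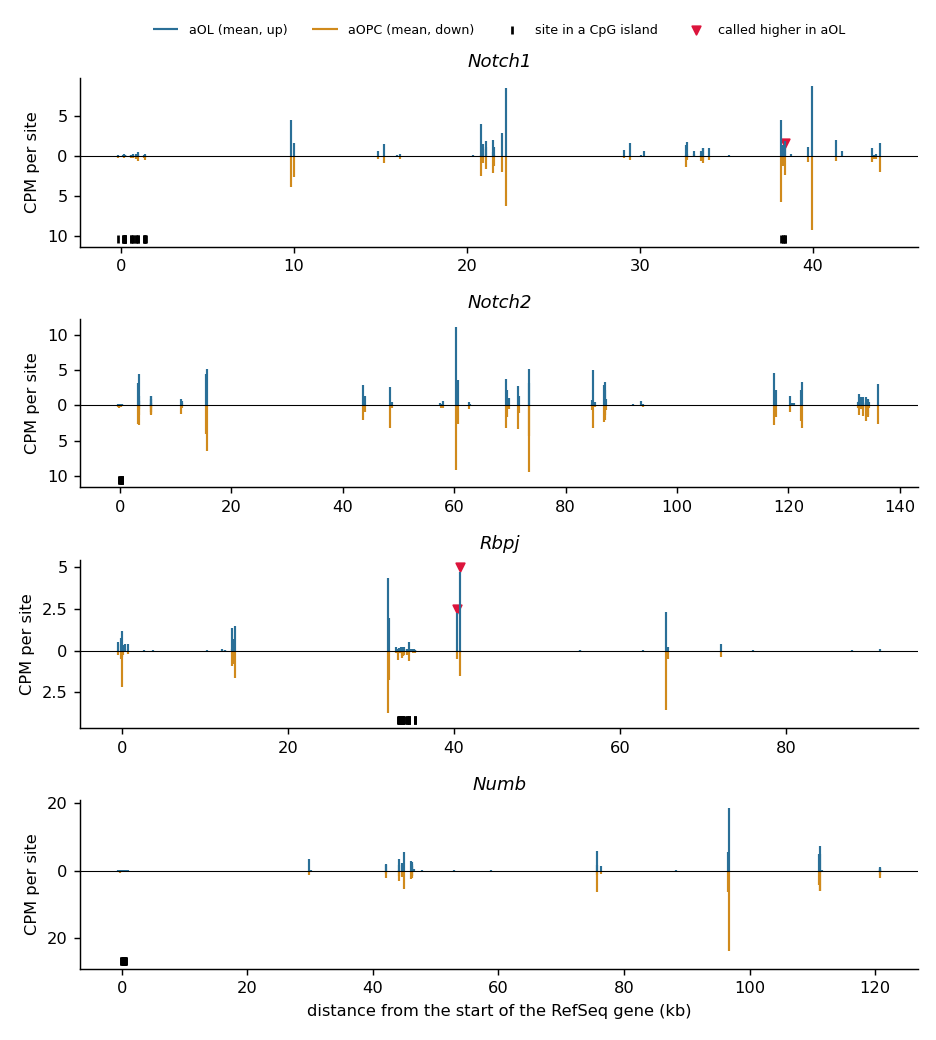
Mean CPM per site (vertical axis, aOL upward in blue and aOPC downward in orange, 2 libraries each) against the distance from the start of the RefSeq gene in kb for Notch1, Notch2, Rbpj and Numb, with black ticks for sites in a CpG island and red triangles for sites called higher in aOL. Tall lines stand outside the islands, and the called Rbpj sites stand next to each other at 40.4 and 40.8 kb.

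Sites in CpG islands were read less. The 244 member sites in islands averaged 0.207 CPM, against 0.989 CPM for the other member sites, and over all sites assigned to a gene the averages were 0.192 and 0.861 CPM. In Notch1 the averages were 0.48 CPM in islands and 0.99 outside, the lowest ratio of outside to inside among the 9 genes, and in Numb they were 0.13 and 1.75.

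Promoter sites were read as the tables annotate them. The 250 bases before a RefSeq start are printed for 3 members whose window holds no annotated exon, 5′ to 3′ on the gene's strand with each CCGG in capitals. Notch2 has an island promoter with 1 CCGG, Jag1 one with several, and Numb an internal start whose upstream window is poor in CpG.

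Notch2 promoter chr3:98013288-98013537: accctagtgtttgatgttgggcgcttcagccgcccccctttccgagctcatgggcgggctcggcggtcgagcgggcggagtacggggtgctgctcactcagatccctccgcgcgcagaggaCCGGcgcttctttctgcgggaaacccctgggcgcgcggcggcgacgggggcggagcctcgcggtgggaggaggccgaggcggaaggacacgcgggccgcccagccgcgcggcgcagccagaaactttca
Jag1 promoter chr2:137116521-137116770: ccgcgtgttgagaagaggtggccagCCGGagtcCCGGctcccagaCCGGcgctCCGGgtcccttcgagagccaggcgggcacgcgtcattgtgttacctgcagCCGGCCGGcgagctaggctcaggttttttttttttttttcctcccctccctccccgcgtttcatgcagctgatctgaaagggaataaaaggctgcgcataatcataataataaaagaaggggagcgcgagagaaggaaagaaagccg
Numb promoter chr12:83876813-83877062: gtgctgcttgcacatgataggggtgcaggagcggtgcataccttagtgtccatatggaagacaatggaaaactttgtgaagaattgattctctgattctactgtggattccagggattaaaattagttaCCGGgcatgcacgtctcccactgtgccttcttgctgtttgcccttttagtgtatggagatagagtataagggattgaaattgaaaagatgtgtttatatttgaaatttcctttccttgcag

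In the Notch2 window (72.0% G and C, 34 CpG) the CCGG had 5 and 3 counts in aOPC, against 6 and 7 in aOL. The Jag1 window (57.2% G and C, 20 CpG, 6 CCGG) had 8 and 3 counts in aOPC, against 1 and 10 in aOL over all its sites. The Numb window (41.6% G and C, 3 CpG) had 35 and 102 counts in aOPC, against 87 and 157 in aOL at its single CCGG. A CCGG was present in the 250-base window of 47.1% of 32851 promoters.

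Summed over promoter sites, Numb had 17.99 and 17.05 CPM in aOPC, against 17.0 and 16.9 in aOL, the highest promoter sum of the 9 genes in each library. Rbpj had 12.9 and 5.84 CPM in aOPC, against 5.71 and 9.79 in aOL, Dll1 11.7 and 3.74 in aOPC, against 3.64 and 6.02 in aOL, and Jag2 10.1 and 4.09 in aOPC, against 3.71 and 4.47 in aOL. Jag1 had 10.4 and 2.98 in aOPC, against 2.45 and 4.21 in aOL. The receptors and Maml1 were lower, between 0.93 and 5.76 CPM.

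In all 9 promoters aOPC replicate 2 was the highest library, as it was in 79.9% of 14579 promoters tested. That library also had the largest share of counts in CpG islands, 5.74% against 2.38% to 3.32% in the other libraries, and over the member sites 17.5% against 8.40% in aOPC replicate 3 and 7.16% and 10% in aOL replicates 2 and 3. After TMM scaling the promoter differences ran from -0.30 (Jag1) to 0.48 log2 (Notch2), with every edgeR adjusted p at 0.998 or above. Scaled to library totals alone, the median over all promoters moved from -0.01 to -0.60 log2, and Notch2, Notch3, Dll1, Rbpj and Numb turned negative (-0.07, -0.26, -0.63, -0.24 and -0.05). Of the 9 promoters, 0 were called by edgeR and 0 by DESeq2, against 0.768% of all promoters, and 0 had an unadjusted p under 0.05, against 5.97%. Numb was the 1 promoter whose CPM did not overlap (lower in aOL), against 20.7% of all promoters. After TMM scaling its difference had the opposite sign, at 0.36 log2 (SE 0.63).

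**Figure D4:**
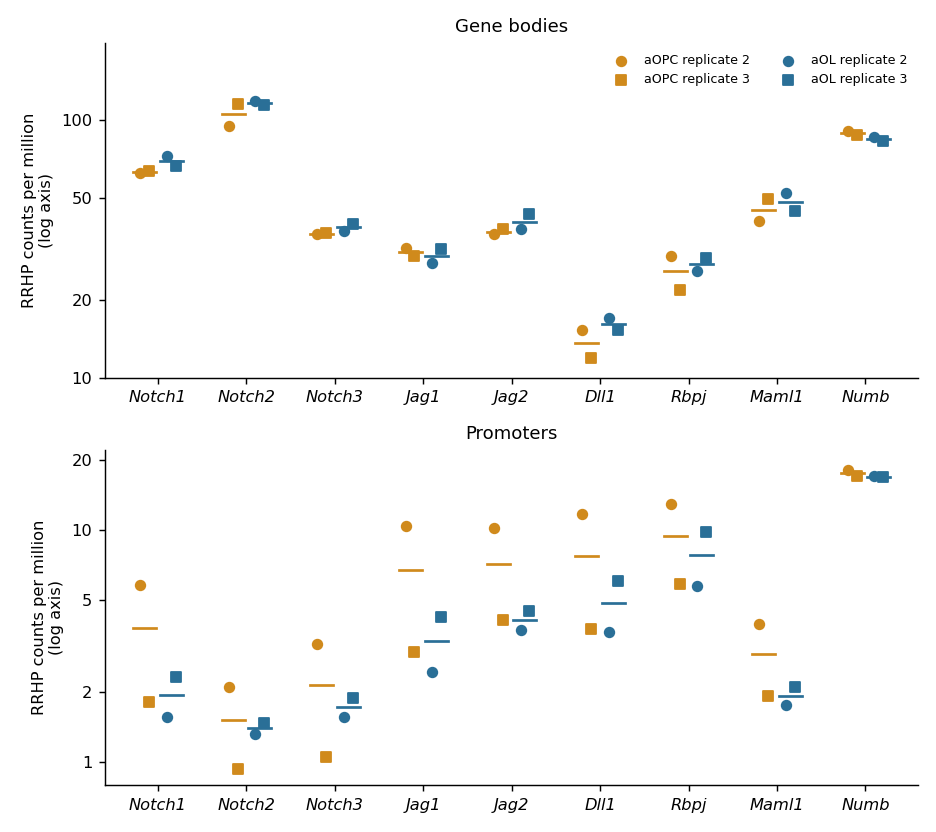
RRHP counts as CPM (log axis) of the 9 genes summed over gene bodies (upper panel) and promoters (lower panel), with aOPC in orange, aOL in blue, circles for replicate 2, squares for replicate 3 and lines for the mean of 2 libraries. Gene-body values of the populations lie close together, whereas aOPC replicate 2 stands above the other 3 libraries in 8 of the 9 promoters and slightly above them in Numb.

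Single sites were tested where at least 2 libraries had 10 reads, which 182 of the 671 member sites reached (47 in Notch2, 30 in Notch1, 22 each in Jag2 and Numb, 17 in Notch3, 13 in Maml1, 11 in Jag1 and 10 each in Dll1 and Rbpj). Of these 182, 3 were called, each higher in aOL, against 2.29% of 443062 sites called in either direction (1.21% higher and 1.08% lower). At an unadjusted p under 0.05 there were 17 (9.34%, with 13 higher and 4 lower), against 9.75% of all sites. Without overlap, 47 were higher and 25 lower in aOL, against 23.3% and 17.2% of all sites. The shares called and at an unadjusted p under 0.05 were thus near those of all sites. Of the 3 called sites, the Rbpj site at chr5:53596178 and the Notch1 site passed the read minimum only through the aOL libraries, where they were high, so their selection was not independent of their direction, which is given as a description. With at least 10 reads required in every library, 88 member sites were tested and 1 was called, the Rbpj site at chr5:53596561 (edgeR adjusted p = 0.0246).

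The Rbpj sites carried the most reads among those called. At chr5:53596178, on the plus strand in intron 1 of Rbpj, there were 4 and 7 counts in aOPC, against 41 and 51 in aOL, or 0.56 and 0.41 CPM against 2.57 and 1.88. Pooled over libraries, aOL had 4.72 times the aOPC CPM (exact 95% interval of the counts, 2.52 to 9.78), and the fitted difference was 2.16 log2 (SE 0.50, edgeR adjusted p = 0.0325). At chr5:53596561, on the minus strand in the same intron, there were 14 and 19 counts in aOPC, against 80 and 119 in aOL, or 1.97 and 1.11 CPM against 5.02 and 4.40. Here the pooled ratio was 3.40 (2.34 to 5.08) and the difference 1.62 log2 (SE 0.38, edgeR adjusted p = 0.0350). It was 1.02 without aOPC replicate 3 (edgeR adjusted p = 0.184) and 2.09 without aOPC replicate 2. At both sites each aOL library stood well above each aOPC library. The intervals come from counts pooled over the 2 libraries of each population. They cover counting error only and leave out the variation between libraries. The reads also had no molecular identifiers.

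A differentially hydroxymethylated region was counted where a window of 2 kb held 2 or more called sites of the same direction. Both Rbpj sites lay in the window chr5:53596001-53598000, which was 1 of 50 member windows with at least 2 tested sites and the 1 member window to meet the rule. Of all 119408 such windows, 270 met it with higher counts in aOL (0.226%) and 750 with lower counts. The Rbpj window met the rule only by counting the site that passed the read minimum through aOL alone, and it is given as a description. The opposite strand at chr5:53596560 had 0 and 0 counts in aOPC, against 0 and 1 in aOL, which stayed at or under 3 counts in every library. Over the whole Rbpj gene body the populations overlapped, as given above.

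The call in Notch1 rested on fewer reads. At chr2:26465453, on the minus strand in coding exon 28 of 34 and within a CpG island, there were 0 and 3 counts in aOPC, against 19 and 26 in aOL, or 0 and 0.18 CPM against 1.19 and 0.96. The pooled ratio was 8.46 (exact 95% interval of the counts, 2.72 to 42.5), and the fitted difference, which depends on the prior count, was 3.0 log2 (SE 0.74, edgeR adjusted p = 0.04995). Without aOPC replicate 3, which leaves aOPC at 0 counts, the fitted value moved to 7.12 and the call was lost (edgeR adjusted p = 0.124). The plus strand of the same CpG, at chr2:26465452, had 17 and 43 counts in aOPC, against 23 and 61 in aOL (2.39 and 2.51 CPM against 1.44 and 2.25), lower in aOL by 0.46 log2 without passing the test (edgeR adjusted p = 0.777). With both strands summed, the difference was 0.12 log2 (edgeR adjusted p = 0.948), and the call was lost.

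Such unequal strands were common among the 9 genes. Both strands were listed for 186 member CpG, and in 52 of these 1 strand averaged at least 1 CPM. Among the 52, the strands differed by a median ratio of 7.70, by over 2 in 46 and by over 5 in 33.

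**Figure D5:**
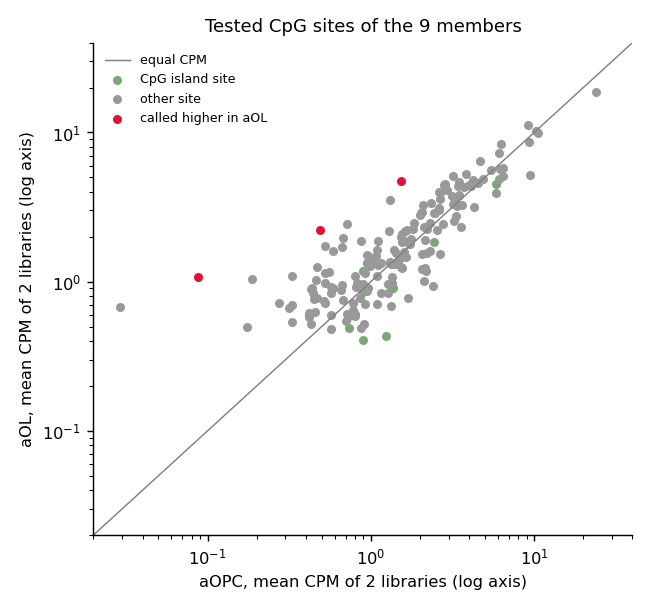
Mean CPM of the 2 aOL libraries (vertical, log axis) against that of the 2 aOPC libraries (horizontal, log axis) for the 182 tested member sites, with CpG island sites in green, other sites in gray, the 3 called sites in red and a line at equal CPM. Most sites lie along the line, and the called sites of Rbpj and Notch1 lie above it.

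All 3 site calls were lost with DESeq2 in place of edgeR, with adjusted p of 0.226 and 0.159 for the Rbpj sites and 0.500 for the Notch1 site. Leaving out single libraries gave between 0 and 4 called member sites. Without aOL replicate 2 or without aOPC replicate 3 there were 0, without aOL replicate 3 there was 1 (chr5:53596178 in Rbpj), and without aOPC replicate 2 there were 4.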

How the data were processed

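Per the study's methods, DNA and RNA were extracted from the same pellets of sorted cells. For RNA, the authors aligned reads to mm10 with BWA, counted exon reads with featureCounts and normalized them with DESeq2 (version 1.2.5 in the submitters' processing notes), and they deposited log2 values per gene symbol. The quartiles of these log2 values are nearly equal in the 4 libraries, so a difference shared by most genes cannot be seen. How the 11315 genes were chosen is not given in the sources used here. For RRHP, the authors aligned reads to mm10 and deposited raw read counts per CpG and strand, with promoter, exon, intron and CpG island columns. The aligner for RRHP is not given in the sources used here. The 2 libraries with the same replicate number listed identical sites, and sites absent from one pair were set to 0 there. Table totals, 7113237 and 17121440 for aOPC replicates 2 and 3 and 15923775 and 27057859 for those of aOL, were below the reads per library that the study lists, and CPM refers to them. Floors and intervals cover counting error only. A first replicate was not analysed here.

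RNA was tested with limma 3.58.1 (lmFit, eBayes) over genes reaching a log2 value of 5 in 2 or more libraries, and a call needed p under 0.01 plus an adjusted p (Benjamini-Hochberg) under 0.05. For RRHP, edgeR 4.0.16 (quasi-likelihood F-test, TMM) was run over sites reaching 10 reads in 2 or more libraries, and over gene-body and promoter sums after filterByExpr, at an adjusted p under 0.05. All tests were two-sided and fitted over all features. With 2 libraries against 2, an exact permutation test cannot go below 0.333. DESeq2 1.42.0, other filters, scalings and site sums, a replicate block and leaving out each library were alternatives. The scripts were tested on simulated data. R 4.3.3, Python 3.11.15, numpy 2.4.6, scipy 1.17.1, pandas 2.3.3 and matplotlib 3.10.9 were used.

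The 9 genes, the pathway list and the marker lists were chosen with earlier results of these data known. Every member was named, with every called site, the tested site of highest mean CPM per gene, the 2 pathway genes with the smallest p in each direction and the nearest gene in RNA; the other pathway genes named were chosen after their values were seen. The values of 1 tested pathway gene, counted but not drawn, and of 1 myelin marker are not reported here. Positions are 1-based at the cytosine of the CpG on GRCm38, and 100% of the 1494474 sites on chromosomes lay at a CCGG of GRCm38.p6. Gene coordinates and promoter windows came from RefSeq, exon and intron numbers from GENCODE M21.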

Additional observations from a re-analysis of the deposited data

How the results depend on the processing

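The counts of called RNA members moved from 0 to 1 at an unadjusted p under 0.05, and ran from 0 to 2 when single libraries were left out. The count of called member sites moved from 3 to 17 at an unadjusted p under 0.05, to 0 with DESeq2, to 1 with at least 10 reads in every library, to 6 with no filter on low counts, and ran from 0 to 4 when single libraries were left out. Gene-body and promoter counts were 0 under every alternative run. Replicate numbers did not pair the libraries (correlation of same-numbered deviations -0.074 in RNA and -0.080 in RRHP), and with the replicate number as a block 0 RNA members, 0 gene bodies, 0 promoters and 4 sites were called.

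Signs that turned belonged to differences that passed no test. With library totals alone, promoter differences were -0.070 (Notch2), -0.26 (Notch3), -0.63 (Dll1), -0.24 (Rbpj) and -0.050 (Numb). With sites of at least 3 reads in every library, they were -0.60 (Dll1) and -0.10 (Rbpj), and the Notch3 gene body was at -0.013. With a window from 2000 bases before to 500 after the gene start, they were 0.068 (Jag2), 0.025 (Maml1) and -0.42 (Numb), and with DESeq2 the Maml1 promoter was at 0.011. Leaving out single libraries gave RNA differences from -0.094 to 0.15 (Notch2) and -0.27 to 0.56 (Maml1), gene-body differences from -0.0082 to 0.30 (Notch2), -0.15 to 0.038 (Jag1), -0.10 to 0.31 (Rbpj) and -0.057 to 0.25 (Maml1), and promoter differences from -0.51 to 0.049 (Notch1), -0.59 to 0.10 (Jag1), -0.22 to 0.31 (Dll1), -0.065 to 0.020 (Maml1) and -0.066 to 0.97 (Numb). The cause was not tested. The log2 RNA values carry no depth, and in a fit with 1 library in a group that library is assumed to vary like the other group.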
